A study of Mus musculus with 66 samples.

Results

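The comparison was that of mid-colonic mucosa at the last day of dextran sulfate sodium (DSS) exposure with mid-colonic mucosa of uninjured mice. It rests on 7 of the 66 bulk RNA samples of the series: the mid-colon of 4 uninjured mice at experimental day 0 (mice 1 to 4) and of 3 mice at day 6 (mice 8 to 10). The samples were chosen by their labelled section and day alone. All 19 mice of the course were wild-type C57Bl/6 animals, bought from Jackson Laboratory at 6 weeks of age, and their age and sex at dissection are not given in the labels. DSS at 3% was given over 6 days from day 0, so the day 6 mice were killed as the exposure ended, and the uninjured mice are the day 0 animals of the cohort. The mucosa was cut from the opened colon with the muscle layer discarded. Each value comes from 1 mouse, and every mouse gave 1 mid-colonic, 1 rectal and 1 anal sample.

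DSS is a sulfated polysaccharide that damages the colonic epithelium from the lumen. When the epithelial barrier fails, bacterial products reach the lamina propria, resident macrophages and epithelial cells release chemokines, and neutrophils and monocytes enter the tissue. The colonic epithelium normally absorbs salt, water and calcium and burns butyrate, renews itself from stem cells at the crypt base, and is covered by mucus from goblet cells. Injury of the mucosa is known for a pause of crypt proliferation followed by a regenerative phase.

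Values are in TPM, a relative abundance adjusted for transcript length. A gene is said to have risen or fallen where limma, fitted over 11967 genes on log2(TPM + 1), gave a Benjamini-Hochberg adjusted p under 0.05. Log2 changes are day 6 minus day 0 on that scale, which understates the change of low genes. Means are given with their SD over 4 mice at day 0 and 3 at day 6. The test called 1785 genes (14.9% of those tested), of which 590 were higher (4.93%) and 1195 lower (9.99%) at day 6, and 726 of them changed at least 2-fold. The samples of both days did not overlap for 3521 genes (29.4%). In whole tissue, fewer cells of a type and less RNA per cell cannot be told apart.

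Uninjured mouse 4 stood apart from the other uninjured mice. On the first principal component, which held 56.8% of the variance, mice 1 to 3 lay between -37.95 and -36.11, mouse 4 at 1.74 and the day 6 mice at 24.3, 31.38 and 53.33. Without mouse 4 the test called 5248 genes (44.2%), 789 of them higher (6.65%) and 4459 lower (37.6%). Without mouse 10, the day 6 mouse farthest out, it called 570 (4.84%), 242 higher (2.06%) and 328 lower (2.79%). Leaving out mouse 1, 2 or 3 gave 844 of 11727, 873 of 11732 and 953 of 11708 tested genes. Leaving out mouse 8 or 9 gave 1243 of 11736 and 840 of 11759, so the count depended on more mice than 4 and 10. Mouse 10 was the highest day 6 sample for 417 of the 590 genes called higher, and mouse 4 the lowest uninjured sample for 875 of the 1195 called lower. The TPM scale itself shifted, with a median change of -0.24 over all genes tested. Relative to the day 0 mean, the median over these genes was 0.07, 0.06, 0.14 and -0.26 in mice 1 to 4. In mice 8 to 10 it was -0.16, -0.24 and -0.34, so uninjured mouse 4 shared the shift, and its median was 0.01 with TMM scaling. The first principal component was computed on the TPM scale, and the part of this shift in the place of mouse 4 was not tested. Scaling with trimmed-mean (TMM) factors removed that shift and called 1943 genes (16.3%), 1144 higher (9.58%) and 799 lower (6.69%). TMM factors with mouse 4 left out called 3071 (25.9%), 1708 higher (14.4%) and 1363 lower (11.5%), and with mouse 10 left out 903 (7.7%), 536 higher (4.57%) and 367 lower (3.13%). Where a group of genes is counted below, the counts higher and lower under TMM factors, without mouse 4 or without mouse 10 follow in parentheses if either moved by more than 1.5 times, of the number tested where that changed. Of the genes tested, 115 were low at day 0, that is under 1 TPM in every uninjured mouse, and 88 of these were called higher. In the same sense 255 were low at day 6, and 83 of these were called lower. Such a gene passed the filter on low values (at least 1 TPM in 3 samples) only through the day on which it was high. Its call is therefore no support for a group, and the parentheses also give how many such genes of a group were tested and called. Genes low at day 0 that are named below include S100a8, Cxcl1, Il1b, Tnf, Isx, Mmp3, Mmp10 and Cd4. Ribosomal protein genes held 9.82 ± 0.531% of the TPM at day 0 and 7.84 ± 0.746% at day 6 (exact two-sided permutation p 0.0286, the smallest the design allows, 0.1143 adjusted over 4 library measures). The share of mitochondrial transcripts was 17.9 ± 1.96% and 16.3 ± 0.807% (exact permutation p 0.2571). The part of these library differences in the results was not tested.

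The epithelial genes Epcam and Krt8 stood at mean levels of 1216 and 4505 TPM at day 0 and 1152 and 3459 TPM at day 6, and the squamous markers Krt13, Krt5 and Trp63 did not exceed a mean of 1.26 TPM in either group. These markers set the samples apart from squamous tissue and say less of the place within the colon. In the rectum of the same uninjured mice Krt13 stood at 2.76 to 45 TPM, above the mid-colonic range of 0.34 to 1.34 TPM, and the posterior Hox gene Hoxd13 at 63.4 to 66.3 TPM, above the mid-colonic 37 to 51.8 TPM. Hoxb13 and Epcam overlapped between the sections, Hoxb13 with 125 to 204 TPM in mid-colon and 169 to 216 TPM in rectum.

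The largest rises included a monocyte chemokine, calprotectin subunits, acute-phase proteins and protease inhibitors. Ccl8 (ENSMUSG00000009185), a chemokine that attracts monocytes, was measured at 5.16, 12.3, 8.68 and 9.07 TPM in uninjured mice 1 to 4 and 208, 175 and 333 TPM in day 6 mice 8 to 10. All 3 day 6 samples lay above all uninjured samples, and the log2 change was 4.61 ± 0.28 (SE, limma adjusted p 6.8e-05). Wfdc18 (ENSMUSG00000000983), a small protein of the WAP domain family, changed from 16.1, 25.1, 12.5 and 14.9 TPM to 361, 312 and 639 TPM, a log2 change of 4.57 ± 0.28 (SE, limma adjusted p 6.8e-05). Slpi (ENSMUSG00000017002), a secreted inhibitor of neutrophil elastase, stood at 45.2, 104, 41.8 and 28 TPM in uninjured mice 1 to 4 and 772, 606 and 1248 TPM in day 6 mice 8 to 10. Its lowest day 6 sample was above its highest uninjured one, mouse 2, and the log2 change was 4.08 ± 0.40 (SE, limma adjusted p 0.00055). Clca4b (ENSMUSG00000074195), of the calcium-activated chloride channel regulator family, had the largest change of the genes given by the naming rule, 5.61 ± 1.06 (SE, limma adjusted p 0.01), and also the widest spread, from 1.23, 57.8, 5.14 and 32.6 TPM to 311, 409 and 1922 TPM. It has close copies among which the authors' quantification could split reads. Tac1 (ENSMUSG00000061762), the precursor of substance P, rose from 8.5, 9.84, 5.9 and 11.9 TPM to 131, 93.7 and 373 TPM (log2 change 4.10 ± 0.41 SE, limma adjusted p 0.00061). Serpina3n (ENSMUSG00000021091), an acute-phase serine protease inhibitor, rose from 1.96, 2.5, 3.23 and 2.52 TPM to 31.3, 35.5 and 61.2 TPM (log2 change 3.57 ± 0.24 SE, limma adjusted p 0.00011). Mouse 10 held the highest value of each of these 6 genes.

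The largest falls included genes of calcium uptake and glutathione conjugation and a claudin of the crypt. S100g (ENSMUSG00000040808), calbindin-D9k, the cytosolic calcium carrier of absorptive cells, was measured at 234, 324, 721 and 303 TPM in uninjured mice 1 to 4 and 26.3, 7.97 and 13.1 TPM in day 6 mice 8 to 10. The samples did not overlap, mouse 3 held the highest uninjured value, and the log2 change was -4.57 ± 0.42 (SE, limma adjusted p 0.00054). Gsta3 (ENSMUSG00000025934), a glutathione transferase, changed from 24.4, 34.5, 23.5 and 21.4 TPM to 1.82, 1.4 and 1.07 TPM, with a log2 change of -3.46 ± 0.20 (SE, limma adjusted p 6.8e-05) and little spread within either group. Cldn2 (ENSMUSG00000047230), a claudin that forms cation and water pores at tight junctions of the crypt, was measured at 20.9, 22.2, 26.3 and 12.8 TPM in uninjured mice 1 to 4 and 3.29, 0.384 and 0.433 TPM in day 6 mice 8 to 10. Mice 9 and 10 were nearly without it while mouse 8 kept a low level, and the log2 change was -3.36 ± 0.40 (SE, limma adjusted p 0.0012). Reg4 (ENSMUSG00000027876), a lectin of secretory cells at the crypt base, was even across uninjured mice and uneven at day 6, from 205, 197, 202 and 209.6 TPM to 116, 17.6 and 16 TPM (log2 change -2.62 ± 0.56 SE, limma adjusted p 0.016). The remaining genes that the rule named as falls were Nxpe2 (-3.42), the serine protease gene Klk15 (-2.84), the glutathione transferase gene Gstm3 (-2.83), the calcium channel gene Trpv6 (-2.82), Smpx (-2.75), the nuclear envelope gene Sun2 (-2.70), the cysteine dioxygenase gene Cdo1 (-2.65) and the ceramidase gene Acer1 (-2.63), all as log2 changes. Under TMM factors, with or without mouse 4, limma called all 24 genes with the largest changes in the same direction. Without mouse 10, with or without TMM factors, it called 22 of them, Reg4 lost its call, and S100a8 no longer passed the filter. Clca4b lost its call with a robust prior in limma, and Clca4b and Reg4 lost theirs with no filter on low values. Reg4 also lost its call without mouse 9, and S100a8 did not pass the filter without mouse 8 or mouse 9.

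**Figure D1:**
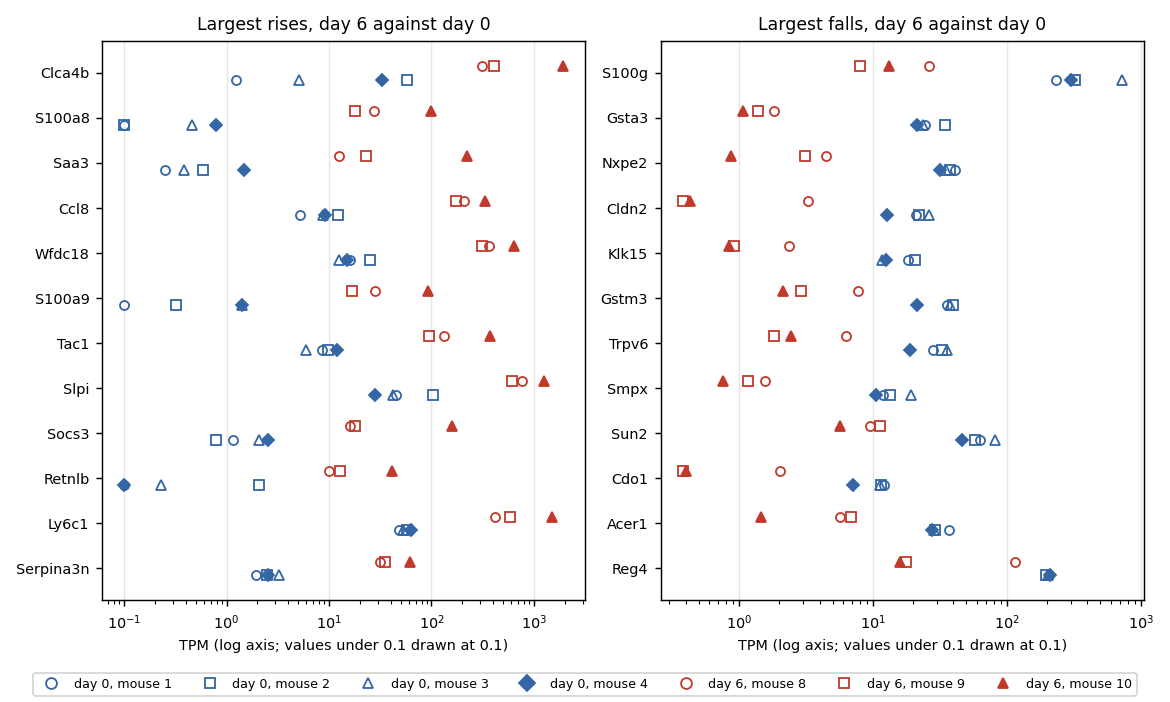
TPM of each sample on a log axis for the 12 genes with the largest rises (left) and the 12 with the largest falls (right), with day 0 in blue and day 6 in red, 1 symbol per mouse and mice 4 and 10 filled. The 2 days do not overlap for any of the 24 genes, as the rule for naming them required, and mouse 10 is the rightmost symbol for each rise.

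Among the neutrophil genes, S100a8 and S100a9 rose from levels near 0. S100a8 and S100a9 encode both subunits of calprotectin, the calcium- and zinc-binding protein that fills the neutrophil cytosol. S100a8 was listed at 0, 0, 0.464 and 0.78 TPM in uninjured mice 1 to 4 and 27.6, 17.7 and 99.8 TPM in day 6 mice 8 to 10, and S100a9 at 0, 0.323, 1.43 and 1.42 TPM in uninjured mice 1 to 4 and 27.8, 16.8 and 92.7 TPM in day 6 mice 8 to 10. No sample of day 0 came near the day 6 range. Their log2 changes were 4.89 ± 0.50 (SE, limma adjusted p 0.00061) and 4.45 ± 0.53 (SE, limma adjusted p 0.0013). S100a8 was low at day 0, so its call is no support for the group. Of the 12 neutrophil genes on the list only 5 passed the filter on low values, and 4 of these were called higher (2 of 2 low at day 0 called, 1 and 0 of 2 without mouse 10). The markers Csf3r, Cxcr2, Ngp, Mmp8 and Trem1 did not pass the filter, Csf3r with a mean of 1.88 TPM at day 6 and Ngp listed at 0 in every day 6 sample. Ly6g, also on the list, stood at 716 ± 177 to 1617 ± 553 TPM. It shares sequence with a family of Ly6 genes, so its reads may come from other members. Of the chemokines for neutrophils, Cxcl1 changed from 0.528, 0.105, 0.206 and 0.346 TPM to 4.15, 1.07 and 14.4 TPM (log2 change 2.09 ± 0.53 SE, limma adjusted p 0.031). Cxcl5 changed from 3.35, 4.31, 2.94 and 4.3 TPM to 10.6, 7.42 and 49 TPM (log2 change 1.86 ± 0.51 SE, limma adjusted p 0.039). Mouse 10 was highest in both, and Cxcl1 was low at day 0. These were the 2 of 5 tested granulocyte chemokines called higher (1 of 1 low at day 0 called, 1 and 0 of 4 without mouse 10).

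Macrophage genes rose from levels already present in uninjured tissue. Lyz2, lysozyme of macrophages and neutrophils, was measured at 90.2, 84.8, 103 and 129 TPM in uninjured mice 1 to 4 and 409, 360.3 and 543 TPM in day 6 mice 8 to 10, with a log2 change of 2.09 ± 0.18 (SE, limma adjusted p 0.00047). Cd68, an endosomal glycoprotein of macrophages, changed from 4.27, 5.72, 6.31 and 4.94 TPM to 30.7, 27.2 and 43 TPM (log2 change 2.44 ± 0.20 SE, limma adjusted p 0.00040). The complement genes C1qa and C1qc, which tissue macrophages transcribe, changed by 1.75 and 1.78, and their samples did not overlap between days. In all, 9 of 12 tested macrophage genes rose and 0 fell, with a list median of 1.05 against -0.24 over all genes. Those called included the receptors Csf1r, Adgre1, Ccr2 and Mrc1. Ly6c2, a marker of fresh monocytes, was not called, with means of 3.54 and 2.12 TPM. The 16 macrophage genes in the table summed to 183 to 246 TPM at day 0 and 621 to 1006 TPM at day 6.

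Chemokines for monocytes and lymphocytes rose in 12 of 16 tested genes and fell in 0 (1 of 1 low at day 0 called, 13 and 1 without mouse 4). Ccl21a, made by lymphatic endothelium and read by Ccr7 on dendritic and T cells, was measured at 91.7, 79.6, 112 and 125 TPM in uninjured mice 1 to 4 and 438, 426 and 388 TPM in day 6 mice 8 to 10. Its day 6 values were closely grouped, and the log2 change was 2.04 ± 0.16 (SE, limma adjusted p 0.00040). Cxcl13, the follicle chemokine for B cells, changed from 2.31, 1.42, 1.64 and 3.59 TPM to 6.4, 10.5 and 21.8 TPM (log2 change 1.99 ± 0.37 SE, limma adjusted p 0.0094). Ccl5, made by T cells and others, changed from 0.741, 2.15, 1.93 and 0.971 TPM to 7.18, 7.03 and 7.43 TPM (log2 change 1.79 ± 0.23 SE, limma adjusted p 0.0019). The monocyte chemokines Ccl2, Ccl7 and Ccl12 rose by 1.73, 1.47 and 1.44 on the log2 scale, and Cxcl12, a stromal chemokine, by 1.72. Ccl21a has near-identical copies in the mouse genome. Of the T and NK cell list, 1 of 5 tested genes was called higher (Cd4, means of 0.282 and 1.34 TPM; 1 of 1 low at day 0 called, 0 and 0 of 4 without mouse 10), Cd3e and Cd8a stayed under a mean of 0.15 TPM, and the 20 genes summed to 6.82 to 10.3 TPM at day 0 and 8.08 to 17.1 TPM at day 6.

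Il1b, the secreted cytokine of inflammasome-activated myeloid cells, was measured at 0.218, 0.391, 0.522 and 0.571 TPM in uninjured mice 1 to 4 and 7.85, 11.1 and 25.4 TPM in day 6 mice 8 to 10. Its 3 day 6 values exceeded every uninjured value, and the log2 change was 3.32 ± 0.33 (SE, limma adjusted p 0.00058). Tnf changed from 0.0495, 0.36, 0.0335 and 0.225 TPM to 3.43, 2.45 and 13.3 TPM (log2 change 2.38 ± 0.42 SE, limma adjusted p 0.0076). Il1b and Tnf were both low at day 0, so their calls are no support for a group. Socs3, the feedback inhibitor induced by STAT3, changed from 1.14, 0.795, 2.07 and 2.54 TPM to 15.9, 17.9 and 159 TPM (log2 change 3.87 ± 0.68 SE, limma adjusted p 0.0077), with mouse 10 far above mice 8 and 9. Il18, which epithelial cells hold ready, was high in all samples and went from 209 ± 11.6 to 361 ± 53.2 TPM (log2 change 0.78 ± 0.13 SE, limma adjusted p 0.0062). The list of interleukins, IL-6 type cytokines and their signalling also holds Tnf and Socs3, and of its 10 tested genes 5 rose and 1, the receptor gene Il22ra1, fell (log2 change -0.77; 3 of 4 low at day 0 called, 2 and 0 of 6 without mouse 10). Il6, Il11, Il17a, Il22, Il23a, Osm and Lif did not pass the filter on low values, with means of at most 0.68 TPM in either group. In the list of TNF family ligands, receptors and NF-κB response genes 8 of 15 tested genes rose and 0 fell, Tnf counted here again (2 of 3 low at day 0 called, 2 and 0 of 12 without mouse 10). They included the receptors Tnfrsf1b (1.65) and Tnfrsf12a (0.94) and Nfkbiz (1.33), a nuclear IκB protein.

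Interferon-stimulated genes moved unevenly. Zbp1, a sensor of Z-form nucleic acids, was measured at 25.2, 24.3, 23.7 and 26.4 TPM in uninjured mice 1 to 4 and 189, 125 and 236 TPM in day 6 mice 8 to 10, with no overlap and a log2 change of 2.79 ± 0.20 (SE, limma adjusted p 0.00016). Other classical genes of the type I response were not called: Ifit1 had means of 7.23 and 8.16 TPM, Rsad2 1.62 and 2.26 TPM and Stat2 4.32 and 4.56 TPM. Those called were Zbp1, Ifit3b (1.44), Bst2 (1.04), Rtp4 (0.88), Oas1a (0.76), Mx1 (0.58) and Irf7 (0.53), 7 of 23 tested genes with 0 lower (1 of 1 low at day 0 called, 2 and 0 of 21 without mouse 10). Of the genes that interferon-gamma induces most, the guanylate-binding proteins (GBP) and immunity-related GTPases, 7 of 16 tested rose and 0 fell (1 of 1 low at day 0 called, 11 and 0 under TMM factors, 3 and 0 of 15 without mouse 10). Gbp2, a GTPase that coats intracellular bacteria, was measured at 15.4, 17.5, 22.1 and 26.4 TPM in uninjured mice 1 to 4 and 56.5, 48.9 and 142 TPM in day 6 mice 8 to 10 (log2 change 1.83 ± 0.34 SE, limma adjusted p 0.01). Ifi47 changed from 1.1, 1.69, 1.19 and 1.94 TPM to 4.42, 4.28 and 13.2 TPM (log2 change 1.59 ± 0.33 SE, limma adjusted p 0.015). Ido1, which degrades tryptophan, changed from 1.32, 1.09, 1.85 and 2.39 TPM to 3.65, 3.12 and 11.3 TPM (log2 change 1.24 ± 0.36 SE, limma adjusted p 0.047). Mouse 10 held the highest value of all 3. Ifng itself was under a mean of 0.02 TPM in both groups.

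Antigen presentation genes rose in both classes. H2-Aa, a chain of the class II molecule that presents peptides to CD4 T cells, was measured at 52.1, 51.1, 51.3 and 63.8 TPM in uninjured mice 1 to 4 and 143, 149 and 208 TPM in day 6 mice 8 to 10. Mouse 4 was the highest uninjured sample and still far below the lowest day 6 one, and the log2 change was 1.58 ± 0.16 (SE, limma adjusted p 0.00066). Cd74, the invariant chain, H2-Eb1 and H2-Ab1 rose by 1.51, 1.46 and 1.30. With H2-DMa, H2-DMb1 and H2-DMb2 they made 7 of 8 tested class II genes higher, with 0 lower. The class II transactivator Ciita did not pass the filter. In class I the immunoproteasome subunit gene Psmb8 rose from 31.4, 30.3, 35.6 and 26.5 TPM to 92.8, 79.1 and 117 TPM (log2 change 1.60 ± 0.17 SE, limma adjusted p 0.00072). Psmb9 rose from 18.7, 12.3, 18.3 and 21.6 TPM to 49.8, 29.9 and 45.6 TPM (log2 change 1.18 ± 0.23 SE, limma adjusted p 0.012). The third such subunit gene, Psmb10, rose by 0.60 on the log2 scale. B2m, the light chain of class I molecules, rose from 495, 444, 389 and 473 TPM to 819.8, 855 and 823 TPM (log2 change 0.89 ± 0.11 SE, limma adjusted p 0.0019). Class I had 6 of 13 tested genes higher and 1 lower (9 and 0 under TMM factors, 8 and 2 without mouse 4, 3 and 0 without mouse 10). The 1 lower gene, H2-K1, had a log2 change of -0.49 on the TPM scale and no call under TMM factors, and class I genes share sequence with one another.

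The promoters of 3 of these genes are shown because each holds the interferon-stimulated response element (ISRE), searched as GAAA, any 2 bases and GAAA again, on both strands in the 250 bases before the RefSeq start (GRCm38.p6). It is printed in capitals. The windows are chr3:142620413-142620662 (plus strand) for Gbp2, chr5:92348890-92349139 (minus strand) for Cxcl10, a chemokine gene called higher with a log2 change of 1.28, and chr2:122147437-122147686 (plus strand) for B2m.
Gbp2: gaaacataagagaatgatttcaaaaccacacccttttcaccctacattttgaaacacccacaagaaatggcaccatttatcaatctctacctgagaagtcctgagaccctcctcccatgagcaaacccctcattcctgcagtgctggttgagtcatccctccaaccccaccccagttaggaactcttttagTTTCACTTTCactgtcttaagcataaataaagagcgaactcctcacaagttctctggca
Cxcl10: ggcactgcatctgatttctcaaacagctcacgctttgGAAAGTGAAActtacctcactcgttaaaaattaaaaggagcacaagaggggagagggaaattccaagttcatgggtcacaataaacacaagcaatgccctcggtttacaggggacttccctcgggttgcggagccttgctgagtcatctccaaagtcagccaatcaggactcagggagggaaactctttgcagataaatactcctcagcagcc
B2m: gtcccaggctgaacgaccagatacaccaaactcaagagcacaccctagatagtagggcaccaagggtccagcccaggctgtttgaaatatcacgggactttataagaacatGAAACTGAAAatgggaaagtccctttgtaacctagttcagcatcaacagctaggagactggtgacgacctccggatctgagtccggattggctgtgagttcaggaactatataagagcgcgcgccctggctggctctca
In Gbp2 the element lies on the opposite strand, and it begins 59 bases before the start, in Cxcl10 213 bases and in B2m 139 bases before it. Windows were found for 5 of the 7 called genes of the interferon-gamma list, and 4 of those 5 held the element, as did 3 of 4 with a window among the called interferon-stimulated genes. Both lists were made of genes known to respond to interferon, and their uncalled members were not counted. These shares therefore say nothing of the day 6 calls. The element was rarer in the other lists. Among genes called higher with a window, 1 of 6 in class I held it. In class II it was 0 of 5, and among chemokines for monocytes and lymphocytes 1 of 8. Over the 8906 tested genes with a window the share was 3.3%, over 27025 genes with a window 3.5%, over the 419 called higher 6.0% and over the 912 called lower 1.6%. Other elements were searched too, so the ISRE is not the only one more frequent among genes called higher. The AP-1 element was in 13.1% of them against 5.8% of the tested genes, and the C/EBP element in 14.8% against 9.2%. Others were rarer, such as the CCAAT box with 33.9% against 40.6%. A match of letters is a description and does not show that a factor is bound.

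Of 18 tested epithelial defence genes 12 rose and 3 fell (Reg4, Nox1 and Wfdc2; 2 of 2 low at day 0 called, 10 and 1 of 16 without mouse 10). Saa3, an acute-phase apolipoprotein, was listed at 0.248, 0.594, 0.387 and 1.46 TPM in uninjured mice 1 to 4 and 12.4, 22.7 and 222 TPM in day 6 mice 8 to 10, and its day 6 values spread widely with mouse 10 far above the others (log2 change 4.68 ± 0.78 SE, limma adjusted p 0.0064). Saa1 rose by 1.73 on the log2 scale from a mean of 3356 TPM to 10847 TPM, and the Saa genes share sequence. Duoxa2, which matures the hydrogen peroxide-producing oxidase of colonocytes, changed from 4.32, 15.9, 7.2 and 9.94 TPM to 92.3, 49.8 and 201 TPM (log2 change 3.38 ± 0.48 SE, limma adjusted p 0.0029), and the oxidase gene Duox2 rose by 2.34. The other colonic oxidase gene, Nox1, fell, from a mean of 5.41 TPM to 0.633 TPM (log2 change -2.03 ± 0.26 SE, limma adjusted p 0.0019). Nos2, the inducible nitric oxide synthase, rose by 2.47 and Lcn2, which binds bacterial siderophores, by 2.10. Reg3b and Reg3g, antibacterial lectins that are abundant in the inflamed gut, did not pass the filter, with means of 0.64 and 1.72 TPM at day 6.

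Of 22 tested genes known from fetal-like or wound epithelium 9 rose and 1, Anxa8, fell (1 of 1 low at day 0 called, 9 and 0 under TMM factors, 9 and 2 without mouse 4). Ly6a, encoding Sca-1, was measured at 575, 821, 858 and 936 TPM in uninjured mice 1 to 4 and 2874, 3399 and 5958 TPM in day 6 mice 8 to 10, without overlap, and changed by 2.30 ± 0.25 (SE, limma adjusted p 0.00083). Ly6c1 rose from 47.9, 58.2, 52.6 and 63.5 TPM to 415, 584 and 1493 TPM (log2 change 3.66 ± 0.36 SE, limma adjusted p 0.00055), and as Ly6 genes are close in sequence and also expressed by leukocytes and endothelium, their reads were not assigned to a cell. Plaur, the urokinase receptor, rose from 2.41, 1.88, 2.49 and 1.96 TPM to 17.2, 9.89 and 20.7 TPM (log2 change 2.35 ± 0.24 SE, limma adjusted p 0.00061). The cornified envelope gene Sprr1a rose from 1.48, 5.57, 7.96 and 4.39 TPM to 21, 18 and 31.4 TPM (log2 change 2.17 ± 0.39 SE, limma adjusted p 0.0086). The EGF receptor ligands Areg, Hbegf and Ereg rose by 1.75, 1.68 and 1.49. Clu, Krt7, Krt20, Anxa3, Cldn4 and F3 were not called, Clu with means of 14.3 and 11.2 TPM, and Msln did not pass the filter.

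**Figure D2:**
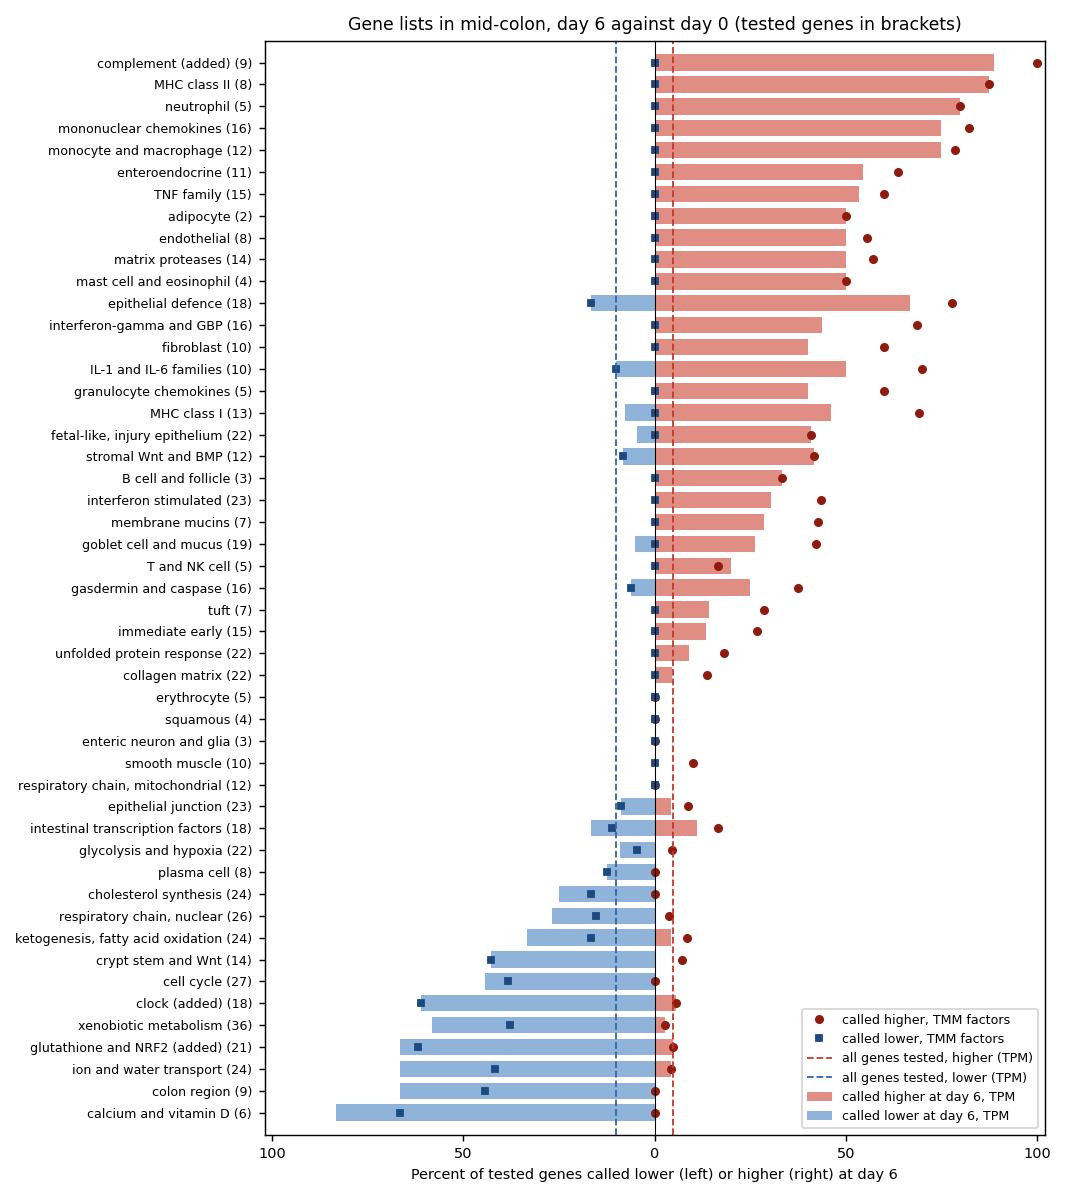
Percent of the tested genes of each list that were called higher (red bars, right) or lower (blue bars, left) at day 6 on the TPM scale, with circles and squares for the same shares under TMM factors and dashed lines for all genes tested (4.93% higher, 9.99% lower). The complement list (added after its values were seen), MHC class II and neutrophil lists reach far to the right, and the calcium, colon region and ion transport lists far to the left. The neutrophil bar rests on 5 tested of 12 genes, with 4 called, 2 of which were low at day 0 and passed the filter only through day 6.

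Of 19 tested goblet cell genes 5 rose and 1 fell (8 and 0 under TMM factors, 8 and 5 without mouse 4, 4 and 0 without mouse 10). Muc2, the gel-forming mucin of the colon, was measured at 752, 872, 806 and 473 TPM in uninjured mice 1 to 4 and 1395, 1436 and 1252 TPM in day 6 mice 8 to 10, with no overlap and a log2 change of 0.94 ± 0.20 (SE, limma adjusted p 0.015). Spink4, a goblet cell peptide, rose from 897, 1147, 916 and 1377 TPM to 1892, 2016 and 2569 TPM (log2 change 1.00 ± 0.17 SE, limma adjusted p 0.0074). Retnlb, the goblet cell lectin induced by bacteria, was nearly absent in mice 1, 3 and 4 and rose from 0, 2.09, 0.227 and 0.0952 TPM to 10.0, 12.9 and 40.9 TPM (log2 change 3.70 ± 0.50 SE, limma adjusted p 0.0024). Zg16 and Tff3, also secreted with mucus, rose by 0.48 and 0.71, Zg16 without a call under TMM factors. The transcription factor gene of the secretory lineage, Atoh1, was called lower, 14.3 ± 3.05 to 8.09 ± 1.84 TPM (log2 change -0.74 ± 0.21 SE, limma adjusted p 0.046), and under TMM factors its adjusted p was 0.054 in limma. Among mucins of the cell surface Muc1 rose from 16.5, 15.7, 15.7 and 9.16 TPM to 44.5, 45.8 and 42.8 TPM (log2 change 1.61 ± 0.20 SE, limma adjusted p 0.0017) and Muc13 from 1608 ± 151 to 3536 ± 758 TPM (log2 change 1.12 ± 0.15 SE, limma adjusted p 0.0021), 2 of 7 tested with 0 lower (2 and 1 without mouse 4). Muc3, the most abundant of them, had means of 4598 and 4620 TPM, without a call.

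Of 11 tested enteroendocrine genes 6 rose and 0 fell. Gcg, the precursor of GLP-1 and GLP-2, was measured at 11, 14.9, 12.7 and 10.2 TPM in uninjured mice 1 to 4 and 46.3, 54 and 81.5 TPM in day 6 mice 8 to 10. The groups did not overlap, mouse 10 was highest, and the log2 change was 2.20 ± 0.21 (SE, limma adjusted p 0.00055). Insl5, the hormone of distal L cells, rose from 122, 91.2, 98.4 and 146 TPM to 212, 246 and 355 TPM (log2 change 1.23 ± 0.21 SE, limma adjusted p 0.0074). Pyy, which slows gut transit, rose from 281, 217, 187 and 195 TPM to 453, 439.8 and 527 TPM (log2 change 1.11 ± 0.16 SE, limma adjusted p 0.0028). The others called were Tac1, Chgb (0.73) and Cpe (0.92). Chga, the general granule protein of these cells, had means of 11.3 and 14.7 TPM and was called with TMM factors but not on the TPM scale. The transcription factors that form these cells, Neurog3, Neurod1 and Insm1, did not pass the filter. Tac1 is also made by enteric neurons, whose list had 0 calls among 3 tested genes and summed to 7 to 15 TPM at day 0 and 12.6 to 14.3 TPM at day 6. Tuft cell genes had 1 of 7 tested higher and 0 lower (2 and 0 under TMM factors, 0 and 0 without mouse 10). The 1 higher was Alox5ap at 5.17 ± 2.04 to 13.1 ± 2.49 TPM (log2 change 1.23 ± 0.26 SE, limma adjusted p 0.015), a gene leukocytes share.

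Genes of salt and water transport fell in 16 of 24 tested and rose in 1, with a median of -0.89 (-0.63 with TMM factors; 1 and 10 under TMM factors, 3 and 19 without mouse 4, 1 and 8 without mouse 10). Kcnn4, a calcium-activated potassium channel, was measured at 8.99, 10.3, 11.3 and 3.89 TPM in uninjured mice 1 to 4 and 3.04, 1.03 and 1.08 TPM in day 6 mice 8 to 10, where mouse 4 lay next to mouse 8, and changed by -1.82 ± 0.36 (SE, limma adjusted p 0.012). Best2, an anion channel of goblet cells, fell from 31.8, 32, 26.5 and 20.2 TPM to 6.42, 12.8 and 4.92 TPM (log2 change -1.74 ± 0.29 SE, limma adjusted p 0.0061). Cftr, the chloride channel of crypts, fell from 9.79, 12, 14.5 and 9 TPM to 5.59, 4.28 and 1.72 TPM (log2 change -1.41 ± 0.30 SE, limma adjusted p 0.016). The epithelial sodium channel subunits Scnn1a, Scnn1b and Scnn1g changed by -1.20, -1.08 and -1.21 on the log2 scale. The water channel Aqp8 changed by -0.94 and the butyrate carrier Slc16a1 by -1.21. The chloride-bicarbonate exchanger Slc26a3 fell from a mean of 1488 TPM to 979.9 TPM, called on the TPM scale but not under TMM factors. Aqp4, another water channel, went the other way, from 17.9, 18.4, 16.2 and 16.1 TPM to 46.3, 29.9 and 53 TPM (log2 change 1.24 ± 0.20 SE, limma adjusted p 0.0049). Car1 and Car4, the abundant carbonic anhydrases of surface cells, were not called, with means of 4091 and 4574 TPM for Car1.

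Calcium uptake genes fell in 5 of 6 tested and rose in 0 (0 and 3 without mouse 10). Besides S100g, the apical channel gene Trpv6 fell from 28.4, 32.7, 36 and 19 TPM to 6.28, 1.82 and 2.45 TPM (log2 change -2.82 ± 0.33 SE, limma adjusted p 0.0012). Vdr, the vitamin D receptor that induces both, fell from 339.5, 343, 454 and 207 TPM to 136, 149 and 82.4 TPM (log2 change -1.44 ± 0.28 SE, limma adjusted p 0.011). Its partner Rxra fell from 24.5, 22.9, 32.7 and 11.2 TPM to 11.1, 7.23 and 8.42 TPM (log2 change -1.19 ± 0.31 SE, limma adjusted p 0.034). In Rxra, mouse 4 was barely above mouse 8. The fifth was the calcium pump gene Atp2b1 (-0.84), with an adjusted p of 0.052 in limma under TMM factors. Cyp24a1, the vitamin D-degrading enzyme, did not pass the filter.

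Drug and xenobiotic metabolism fell in 21 of 36 tested genes, with 1 higher (Cyp2d34; 2 and 25 without mouse 4, 1 and 12 without mouse 10). Gstm1, a glutathione transferase, was measured at 211, 221, 201 and 146 TPM in uninjured mice 1 to 4 and 58.2, 49.5 and 37.3 TPM in day 6 mice 8 to 10, without overlap, and changed by -1.99 ± 0.19 (SE, limma adjusted p 0.00055). Ces1f, a carboxylesterase, fell from 10.2, 8.47, 7.42 and 7.23 TPM to 0.387, 0.0719 and 1.54 TPM (log2 change -2.57 ± 0.28 SE, limma adjusted p 0.00085). Kyat1, which transaminates kynurenine and cleaves cysteine conjugates, fell from 165, 175, 188 and 209 TPM to 54, 63.4 and 25.8 TPM (log2 change -2.02 ± 0.27 SE, limma adjusted p 0.0021). Mouse 4 was here the highest uninjured sample. Gstm3 fell from 36, 39.4, 37.7 and 21.4 TPM to 7.78, 2.91 and 2.12 TPM (log2 change -2.83 ± 0.35 SE, limma adjusted p 0.0016). Hsd11b2, which inactivates glucocorticoids, the efflux pump gene Abcb1a and Cyp2s1 changed by -1.59, -1.13 and -1.73. The 41 genes summed to 6829 to 7680 TPM at day 0 and 3669 to 5320 TPM at day 6, without overlap. Glutathione transferases and carboxylesterases come in families of similar sequence.

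Fatty acid oxidation and ketone body genes fell in 8 of 24 tested and rose in 1, Slc25a20 (2 and 4 under TMM factors, 2 and 17 without mouse 4, 0 and 1 without mouse 10). Acads, the short-chain acyl-CoA dehydrogenase that begins butyrate oxidation, was measured at 48.1, 57.1, 56.3 and 22.1 TPM in uninjured mice 1 to 4 and 16.9, 14 and 15 TPM in day 6 mice 8 to 10. Mouse 4 stood well below the other uninjured mice, and the log2 change was -1.44 ± 0.30 (SE, limma adjusted p 0.015). Bdh1 and Acat1, of ketone body metabolism, changed by -0.96 and -0.92, and Fabp2, a fatty acid carrier, had a change of -0.92 ± 0.22 (SE, limma adjusted p 0.026) that TMM factors took to an adjusted p of 0.101 in limma. Nuclear genes of the respiratory chain had 7 of 26 lower and 0 higher (1 and 4 under TMM factors, 1 and 15 without mouse 4, 0 and 1 without mouse 10), led by Uqcrfs1 at 194 ± 17.5 to 108 ± 15.7 TPM and Sdha at 179.9 ± 42.5 to 99.2 ± 11.8 TPM. Genes of the mitochondrial genome had 0 of 12 called, with mt-Co1 at 40229 ± 2613 to 37429 ± 4701 TPM and mt-Co2 at 29599 ± 3462 to 30626 ± 419 TPM, and the sign of mt-Co1 turned from -0.11 to 0.17 with TMM factors. In cholesterol synthesis 6 of 24 tested genes fell and 0 rose (0 and 16 without mouse 4, 0 and 1 without mouse 10). Mvd, a decarboxylase of the mevalonate pathway, fell from 17, 18.6, 16.6 and 8.25 TPM to 5.5, 6.94 and 7.48 TPM (log2 change -1.03 ± 0.26 SE, limma adjusted p 0.031), while the early enzyme gene Hmgcs1 was not called. Glycolysis and hypoxia genes had 0 of 22 higher and 2 lower, a share close to the 9.99% lower over all genes tested, Pfkl at 82.8 ± 20.9 to 39.3 ± 0.533 TPM and Ndrg1 at 46 ± 5.58 to 28.1 ± 7.87 TPM (1 and 1 under TMM factors, 0 and 6 without mouse 4, 0 and 0 without mouse 10). Gapdh had means of 3947 and 3799 TPM, without a call.

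Of 27 tested cell cycle genes 12 fell and 0 rose (0 of 1 low at day 6 called, 0 and 3 without mouse 10). Ccnb2 and Ccnb1 encode B-type cyclins, the regulatory subunits of the mitotic kinase. Ccnb2 was measured at 11.8, 16.6, 13 and 5.1 TPM in uninjured mice 1 to 4 and 3.37, 0.848 and 1.16 TPM in day 6 mice 8 to 10 and changed by -2.18 ± 0.39 (SE, limma adjusted p 0.0086). Ccnb1 was measured at 13.6, 17.9, 13.4 and 5.59 TPM in uninjured mice 1 to 4 and 6.91, 0.831 and 1.1 TPM in day 6 mice 8 to 10 and changed by -2.03 ± 0.52 (SE, limma adjusted p 0.031). In Ccnb1 mouse 8 lay above uninjured mouse 4, so the groups overlapped, and mice 9 and 10 were near 1 TPM. Ccna2 and Mki67, a marker of cycling cells, overlapped in the same way, with changes of -1.94 ± 0.49 (SE, limma adjusted p 0.03) and -1.86 ± 0.45 (SE, limma adjusted p 0.025). Relative to the day 0 mean, with TMM scaling, the list median was -0.22 in mouse 8, -1.10 in mouse 9 and -0.75 in mouse 10, and -0.29 in uninjured mouse 4. The genes of DNA replication Mcm2 to Mcm7 and Pcna were not called, Pcna with means of 76.1 and 88.2 TPM. Cdkn1a, the p21 inhibitor of cycling that differentiated surface cells carry, was among the falls, from a mean of 262 TPM to 132 TPM (log2 change -0.98 ± 0.12 SE, limma adjusted p 0.0012).

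The promoters of Ccnb2 and Cdc20 are shown because both hold letter matches to elements known from mitotic genes. Cdc20, which activates the anaphase-promoting complex, changed by -1.81. The elements are the cell cycle genes homology region (CHR, searched as TTTGAA) and the CCAAT box (CCAAT). They were searched on both strands and are printed in capitals. The windows are chr9:70421555-70421804 (minus strand) and chr4:118437344-118437593 (minus strand), 250 bases before the RefSeq start (GRCm38.p6).
Ccnb2: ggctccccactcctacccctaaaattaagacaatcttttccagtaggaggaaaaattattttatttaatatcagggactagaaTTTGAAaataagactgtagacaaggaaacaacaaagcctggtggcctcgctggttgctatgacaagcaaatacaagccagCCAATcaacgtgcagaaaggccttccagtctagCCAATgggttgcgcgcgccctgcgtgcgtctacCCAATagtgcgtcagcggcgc
Cdc20: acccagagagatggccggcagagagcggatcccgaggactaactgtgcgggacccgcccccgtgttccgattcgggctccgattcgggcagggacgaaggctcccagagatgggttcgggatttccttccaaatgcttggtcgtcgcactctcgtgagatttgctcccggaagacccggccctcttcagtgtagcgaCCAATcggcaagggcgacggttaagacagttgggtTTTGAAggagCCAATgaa
Of the 12 called cell cycle genes 10 had a window, of which 7 held a CCAAT box and 5 a CHR. Over the tested genes with a window the shares were 40.6% and 12.9%, so the CCAAT box in particular is common. In Ccnb2 the TTTGAA begins 167 bases before the start, farther out than its 3 CCAAT boxes at 87, 54 and 21 bases. In Cdc20 it begins 18 bases before the start, between its 2 CCAAT boxes at 53 and 8 bases. The bases after the window were found in the transcript for Cdc20 but not for Ccnb2. The search windows say nothing of binding.

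Crypt stem cell and Wnt target genes had 6 of 14 tested genes lower and 0 higher (2 of 2 low at day 6 called, 1 and 6 under TMM factors, 0 and 1 without mouse 10). Cdca7, a Myc-responsive gene of dividing cells, changed from 7.83, 6.69, 9.67 and 3.74 TPM to 2.81, 1.98 and 2.28 TPM (log2 change -1.20 ± 0.27 SE, limma adjusted p 0.019). Lrig1, a brake on EGF receptors in crypt base cells, changed from 10.9, 11, 11.7 and 4.9 TPM to 4.54, 3.74 and 3.01 TPM (log2 change -1.11 ± 0.28 SE, limma adjusted p 0.03), with mouse 4 next to mouse 8. Rnf43, which removes Wnt receptors, and Lgr4, a receptor for R-spondins, changed by -0.91 and -0.80. Axin2, the general Wnt target, fell from a mean of 1.29 TPM to 0.321 TPM (log2 change -0.77 ± 0.22 SE, limma adjusted p 0.045), and Smoc2 changed by -1.29. Axin2 was 1 of the 2 genes low at day 6, so its call is no support for the group. Lgr5, Ascl2 and Olfm4 did not pass the filter, so these stem cell markers were not tested.

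Junction genes were mostly uncalled, 2 of 23 lower and 1 higher (2 and 2 under TMM factors, 1 and 10 of 22 without mouse 4). The exceptions were claudins. Cldn15, a paracellular sodium channel, fell from 9.3, 9.42, 11.1 and 5.18 TPM to 2.9, 0.608 and 0.989 TPM (log2 change -2.03 ± 0.33 SE, limma adjusted p 0.0055) along with Cldn2, and Cldn8, a tightening claudin of the distal colon, rose from 59, 49.5, 41.9 and 38.7 TPM to 130.1, 96.6 and 128 TPM (log2 change 1.31 ± 0.18 SE, limma adjusted p 0.0025). Cdh1, Ocln and Tjp1 were not called. Transcription factors of the intestinal epithelium had 2 of 18 tested genes higher and 3 lower (1 of 1 low at day 0 called, 2 and 11 without mouse 4, 0 and 0 of 17 without mouse 10). Isx, a homeobox repressor of vitamin A uptake, rose from 0.158, 0.379, 0.617 and 0.404 TPM to 8.34, 7.44 and 30.3 TPM (log2 change 3.29 ± 0.40 SE, limma adjusted p 0.0016), and Nr1h4, the bile acid receptor FXR, by 0.70 on the log2 scale. Isx was low at day 0, so its call is no support for the group. Klf5, of proliferating crypt cells, fell from 117, 136, 155 and 62.7 TPM to 57.7, 43.2 and 34.9 TPM (log2 change -1.32 ± 0.30 SE, limma adjusted p 0.019). Klf4 and Cdx2 had changes of -0.78 and -0.94, called on the TPM scale, and under TMM factors limma gave adjusted p-values of 0.071 and 0.064.

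Genes that mark position along the colon were lower in 6 of 9 tested, with 0 higher (0 and 0 without mouse 10). Hoxd10 changed from 12.8 ± 0.778 to 7.59 ± 0.42 TPM (log2 change -0.68 ± 0.14 SE, limma adjusted p 0.016), Fabp6 from 9.59, 10.3, 6.73 and 2.72 TPM to 2.32, 2.6 and 1.92 TPM (log2 change -1.23 ± 0.35 SE, limma adjusted p 0.044) and Cyp2c55 from 1008 ± 237 to 539.9 ± 225 TPM (log2 change -0.96 ± 0.28 SE, limma adjusted p 0.045). TMM factors took Cyp2c55 to an adjusted p of 0.096 in limma. Hoxb13 and Hoxa13 were not called.

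**Figure D3:**
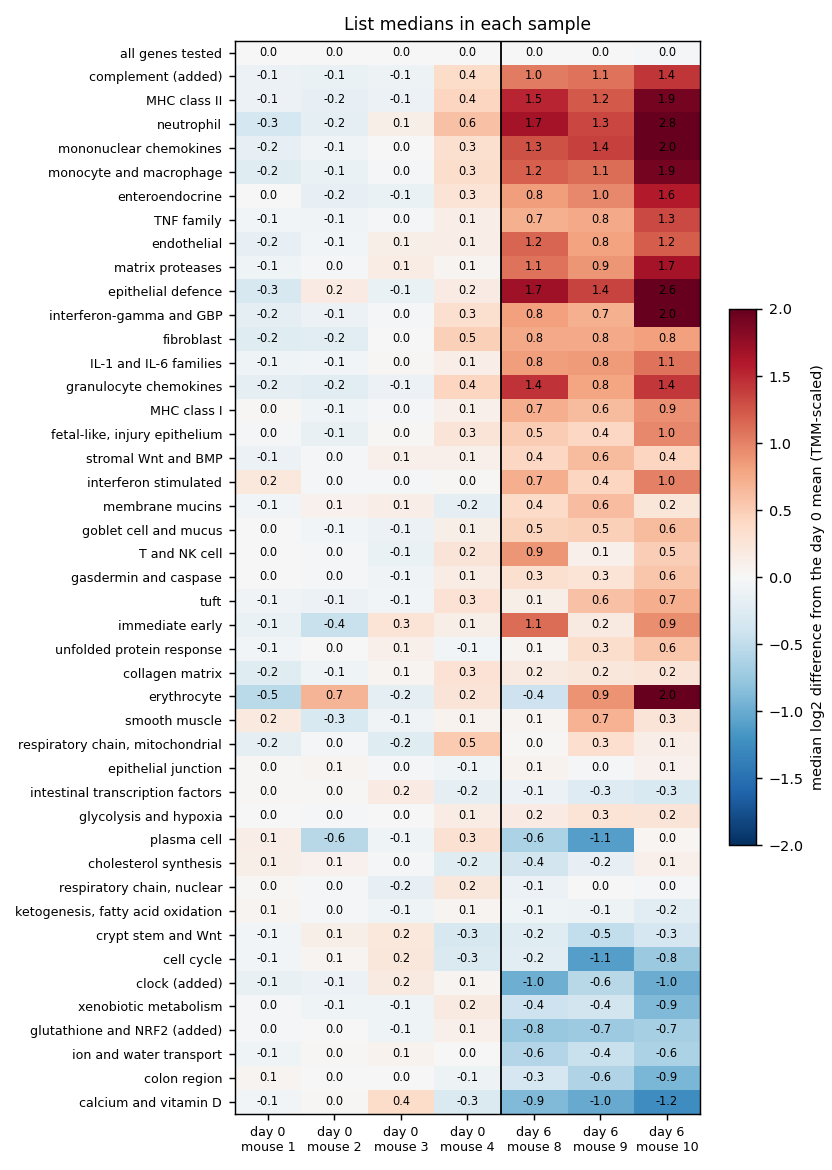
Median log2 difference from the day 0 mean in each of the 7 samples, with TMM scaling, for every list with at least 5 tested genes and for all genes tested (top row), where red is higher and blue lower. The neutrophil median is 1.66, 1.34 and 2.78 in mice 8, 9 and 10, and the cell cycle median is -0.22 in mouse 8 against -1.10 and -0.75 in mice 9 and 10. The neutrophil median rests on 5 tested genes, 2 of them low at day 0.

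In the stroma, matrix-degrading enzymes and their inhibitors rose in 7 of 14 tested genes and fell in 0 (2 of 3 low at day 0 called, 7 and 1 without mouse 4, 3 and 0 of 10 without mouse 10). Mmp3 (stromelysin-1), made by fibroblasts, was measured at 0.192, 0.219, 0.569 and 0.453 TPM in uninjured mice 1 to 4 and 9.48, 4.08 and 25.3 TPM in day 6 mice 8 to 10 and changed by 3.05 ± 0.45 (SE, limma adjusted p 0.0036). Mmp10 rose from 0.284, 0.351, 0.221 and 0.451 TPM to 4.63, 2.21 and 16.9 TPM (log2 change 2.37 ± 0.47 SE, limma adjusted p 0.012) and the inhibitor Timp1 from 1.94, 1.42, 3.19 and 1.84 TPM to 9.31, 6.28 and 17.2 TPM (log2 change 1.87 ± 0.31 SE, limma adjusted p 0.0061). Plat, tissue plasminogen activator, rose from 1.44, 1.73, 1.59 and 1.77 TPM to 10.3, 6.54 and 59.3 TPM (log2 change 2.71 ± 0.58 SE, limma adjusted p 0.016). All 4 were highest in mouse 10. Mmp3 and Mmp10 were low at day 0, so their calls are no support for the group. Of 22 tested collagen and matrix genes 1 rose, the proteoglycan gene Dcn at 145 ± 28.8 to 251 ± 43.2 TPM (log2 change 0.79 ± 0.17 SE, limma adjusted p 0.018; 3 and 0 under TMM factors, 3 and 2 without mouse 4, 0 and 0 without mouse 10). Col1a1 had means of 13.9 and 13.5 TPM and Col3a1 of 163 and 199 TPM. Fibroblast genes had 4 of 10 higher and 0 lower, among them Pdpn at 2.72 ± 0.601 to 7.14 ± 1.21 TPM and Thy1 at 6.28 ± 1.15 to 11.3 ± 3.38 TPM (8 and 0 without mouse 4, 1 and 0 without mouse 10).

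Signals between the stroma and the crypt changed in 6 of 12 tested genes, 5 higher and 1 lower (5 and 2 without mouse 4, 2 and 0 without mouse 10). Grem1, a secreted inhibitor of BMP, was measured at 4.38, 5.64, 5.96 and 4.93 TPM in uninjured mice 1 to 4 and 18.2, 18.1 and 17.8 TPM in day 6 mice 8 to 10, with closely grouped day 6 values and a log2 change of 1.62 ± 0.16 (SE, limma adjusted p 0.00055). Sfrp1, a secreted Wnt binder, rose from 2.35, 1.61, 2.1 and 2.26 TPM to 6.07, 7.07 and 7.6 TPM (log2 change 1.36 ± 0.17 SE, limma adjusted p 0.0016). Bmp4 had 4.88 ± 1.87 to 9.25 ± 1.45 TPM and overlapped through mouse 3 (log2 change 0.84 ± 0.24 SE, limma adjusted p 0.044), and Rspo3, which sustains crypt stem cells, rose by 0.59 on the log2 scale. Ihh, the epithelial signal to the stroma, changed from 32.7, 26.2, 33.4 and 13.3 TPM to 13.7, 10.6 and 5.91 TPM (log2 change -1.29 ± 0.35 SE, limma adjusted p 0.036), and mouse 8 lay just above mouse 4. Endothelial genes had 4 of 8 higher and 0 lower (1 of 1 low at day 0 called, 2 and 0 of 7 without mouse 10). Vcam1 and Icam1, which hold leukocytes at the vessel wall, changed by 1.38 and 1.21, Lyve1 of lymphatic vessels by 1.33 and Egfl7 by 1.29. Pecam1 had means of 13.7 and 12.9 TPM, without a call.

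Smooth muscle, which the dissection was to remove, had 0 of 10 genes called on the TPM scale (1 and 0 under TMM factors, 1 and 1 without mouse 4) and summed to 1076 to 1531 TPM at day 0 and 1304 to 1742 TPM at day 6. Its most abundant genes were Tagln at 395 ± 40.3 to 509 ± 53 TPM and Actg2 at 278 ± 77 to 273 ± 104 TPM, and the change of Actg2 was -0.05 on the TPM scale and 0.23 with TMM factors. Squamous genes had 0 of 4 called, with Krt14 at 4.18 ± 0.728 to 5.65 ± 2.07 TPM and Sbsn at 1.29 ± 0.465 to 2.39 ± 1.28 TPM, and summed to 7.12 to 12.8 TPM at day 0 and 7.08 to 16.7 TPM at day 6. Hemoglobin and other erythrocyte genes had 0 of 5 called, with Hbb-bs at 49.7 ± 21.5 to 84.8 ± 58.7 TPM and Hba-a1 at 33.7 ± 17.1 to 69 ± 63.2 TPM, both highest in mouse 10. Enteric neuron genes had 0 of 3 called, with Vip at 5.81 ± 1.96 to 7.35 ± 1.02 TPM and Uchl1 at 2.18 ± 1.09 to 2.66 ± 0.512 TPM. Of 2 tested adipocyte genes 1, Fabp4, was called higher (0 and 0 without mouse 10), 3.71 ± 1.53 to 9.11 ± 0.611 TPM (log2 change 1.15 ± 0.24 SE, limma adjusted p 0.015), while Adipoq, Plin1 and Lep did not pass the filter. Plin1 and Lep were at 0 in all 7 samples. Fabp4 is also an endothelial and macrophage gene. The plasma cell list had 1 of 8 lower, Sdc1 at 117 ± 26.8 to 57.7 ± 4.6 TPM (log2 change -0.98 ± 0.20 SE, limma adjusted p 0.013), a gene that epithelium also expresses (0 and 0 of 7 without mouse 10). Igkc, Igha and Jchain had mean levels of 512, 128 and 76.1 TPM at day 0 and 202, 49.3 and 31.6 TPM at day 6, without a call. B cell genes had 1 of 3 higher, Cxcl13, and of the mast cell and eosinophil list 2 of 4 were higher, Mcpt2 and Ear2 (1 of 1 low at day 0 called, 2 and 1 of 3 without mouse 4, 1 and 0 of 3 without mouse 10). The part of any shift in these tissues in the epithelial results was not tested.

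Stress and cell death genes are read against the 4.93% of all tested genes called higher. In the unfolded protein response 2 of 22 genes rose, Atf3 at 21.3 ± 7.72 to 59.6 ± 28 TPM (log2 change 1.40 ± 0.36 SE, limma adjusted p 0.031) and Asns at 10.9 ± 2.66 to 20.9 ± 4.04 TPM (log2 change 0.89 ± 0.21 SE, limma adjusted p 0.025; 4 and 0 under TMM factors, 4 and 4 without mouse 4, 0 and 0 without mouse 10). Hspa5, the ER chaperone, had means of 302 and 389 TPM and was not called. Immediate early genes had 2 of 15 higher, Atf3 and Ier3 at 4.14 ± 1.06 to 9.96 ± 1.6 TPM (log2 change 1.11 ± 0.22 SE, limma adjusted p 0.012; 4 and 0 under TMM factors, 1 and 0 without mouse 10). Of gasdermins and caspases 4 of 16 rose, a larger share than over all genes, and 1 fell (5 and 4 without mouse 4, 1 and 1 without mouse 10). Casp4, the sensor of intracellular endotoxin, rose from 16.3, 21.8, 22.5 and 35.2 TPM to 69.6, 42 and 125 TPM (log2 change 1.59 ± 0.35 SE, limma adjusted p 0.018), its target pore protein gene Gsdmd from 146, 125, 139 and 137 TPM to 231, 233 and 296 TPM (log2 change 0.88 ± 0.13 SE, limma adjusted p 0.0038) and Casp8 from 65.8, 67.7, 71.9 and 60.2 TPM to 108, 89.2 and 148 TPM (log2 change 0.76 ± 0.17 SE, limma adjusted p 0.021). Gsdmc3 fell from 133, 121, 125 and 83.8 TPM to 61.5, 52.2 and 42.9 TPM (log2 change -1.13 ± 0.19 SE, limma adjusted p 0.0064), and the Gsdmc genes are close copies.

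Day 6 was also compared with day 3, the middle of the exposure, in 3 mice per group. limma called 3777 of 11862 genes (31.8%), 569 higher (4.8%) and 3208 lower (27.0%). TMM factors gave 1892 calls (15.9%), 1237 higher (10.4%) and 655 lower (5.51%). Without mouse 5, a day 3 animal, there were 5690 calls, and without mouse 6, 732. S100a8 changed by 5.24 ± 0.52 (SE, limma adjusted p 0.002, 0.0033 with TMM factors), Saa3 by 5.19 ± 0.85 (SE, limma adjusted p 0.0089, 0.011 with TMM factors), Clca4b by 7.44 ± 0.64 (SE, limma adjusted p 0.0016, 0.0027 with TMM factors) and Ccl8 by 3.20 ± 0.30 (SE, limma adjusted p 0.0016, 0.0026 with TMM factors). In every day 3 mouse S100a8 was at 0 TPM and Saa3 at no more than 0.231 TPM. Both passed the filter only through day 6, so their calls here are no support. S100g changed by -4.71 ± 0.54 (SE, limma adjusted p 0.0035, 0.0047 with TMM factors) and was still at 482 ± 376 TPM at day 3 (n = 3). The other 2 of the 3 largest falls by the rule were Cyp2c68, by -2.64 ± 0.30 (SE, limma adjusted p 0.0035, 0.0054 with TMM factors), and the noncoding Zfas1, by -2.59 ± 0.73 (SE, limma adjusted p 0.031, 0.091 with TMM factors). Mki67 stood at 3.47 ± 2.63 TPM at day 3 and 2.14 ± 2.42 TPM at day 6, a change of -0.62 ± 0.53 (SE, limma adjusted p 0.36, 0.69 with TMM factors). Kyat1 stood at 28.2 ± 12.8 and 47.7 ± 19.6 TPM, a change of 0.75 ± 0.39 (SE, limma adjusted p 0.16, 0.053 with TMM factors), and Grem1 at 16.5 ± 5.93 and 18 ± 0.179 TPM, a change of 0.19 ± 0.25 (SE, limma adjusted p 0.56, 0.062 with TMM factors). A missed call here does not show that levels were equal.

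Over the course of 20 days the genes differed in where day 6 fell. Ccl8 had its highest mid-colon mean at day 6, 239 ± 83.4 TPM, against 25.2 ± 9.77 TPM at day 3 and 142 ± 59.7 TPM at day 9. S100a8 reached 615 ± 393 TPM at day 9, over its 48.4 ± 44.8 TPM at day 6. Slpi was at 875 ± 334 and 873 ± 129.6 TPM on those days. Cldn2 and Mki67 had their lowest means at day 6 and stood at 41.4 ± 8.67 and 56.3 ± 15.5 TPM at day 9, above their day 0 means of 20.6 ± 5.63 and 8.9 ± 3.07 TPM. Reg4 stood at 204 ± 5.26 TPM at day 0 and 624 ± 54 TPM at day 14. S100g had 2.42 ± 2.23 TPM at day 9 and 173 ± 169 TPM at day 20. These means are descriptions, with no test between the later days.

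**Figure D4:**
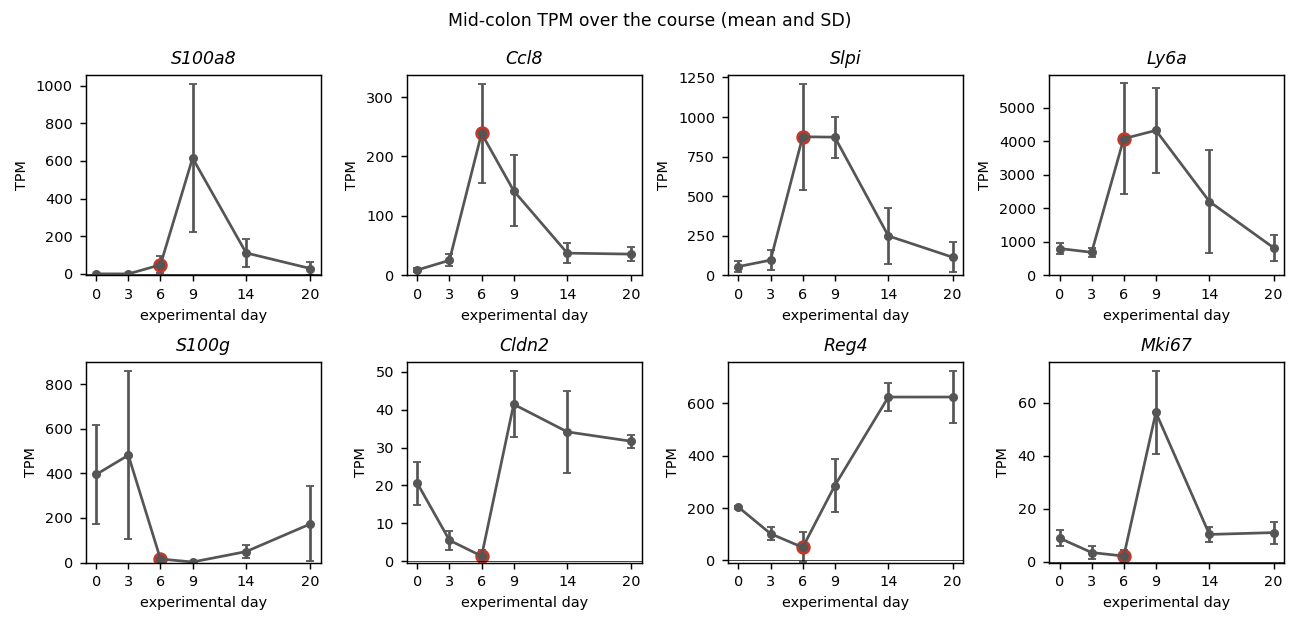
Mid-colon TPM of 8 genes by experimental day (mean and SD, 4 mice at day 0 and 3 at each later day), with day 6 marked in red and DSS given until day 6. Ccl8 is highest at day 6, S100a8 at day 9, and Cldn2 and Mki67 are lowest at day 6.

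The rectum of the same 7 mice was used to ask whether the day 6 change differed between the sections. In the rectum alone limma called 6145 of 12615 genes (48.7%), 1455 higher (11.5%) and 4690 lower (37.2%). The difference of the changes (mid-colon minus rectum) was tested as an interaction over 12986 genes, and 0 were called, in limma (0.0%), with 730 at an unadjusted p under 0.05, and 0 also with TMM factors. Both sections came from the same mice, and the fit with the mouse as a replicate block called 76 genes (0.585%), 11 with a higher (0.0847%) and 65 with a lower (0.501%) change in mid-colon, or 48 with TMM factors also (8 and 40). S100a8 changed by 4.89 in mid-colon and 8.17 in rectum (difference -3.28 ± 0.51 SE, limma adjusted p 0.031 with the mouse as a block and 0.47 without), and its rectal values at day 6 were 141, 305 and 1543 TPM in mice 8 to 10. Saa3 changed by 4.68 in mid-colon and 8.46 in rectum (difference -3.78 ± 0.29 SE, limma adjusted p 0.00091 with the mouse as a block and 0.54 without) and Il1b by 3.32 in mid-colon and 6.74 in rectum (difference -3.42 ± 0.26 SE, limma adjusted p 0.00091 with the mouse as a block and 0.12 without). Mmp3 changed by 3.05 in mid-colon and 6.12 in rectum (difference -3.07 ± 0.26 SE, limma adjusted p 0.0012 with the mouse as a block and 0.36 without), Mmp10 by 2.37 in mid-colon and 5.02 in rectum (difference -2.64 ± 0.45 SE, limma adjusted p 0.042 with the mouse as a block and 0.8 without), Timp1 by 1.87 in mid-colon and 3.96 in rectum (difference -2.09 ± 0.20 SE, limma adjusted p 0.0035 with the mouse as a block and 0.36 without) and Cxcl1 by 2.09 in mid-colon and 4.28 in rectum (difference -2.19 ± 0.26 SE, limma adjusted p 0.011 with the mouse as a block and 0.81 without). All 3 rectal samples of day 6 exceeded the mid-colonic sample of the same mouse for S100a8, Saa3, Il1b and Mmp3.

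Hormone and stromal genes were also among the 65. Gcg changed by 2.20 in mid-colon and 3.65 in rectum (difference -1.45 ± 0.18 SE, limma adjusted p 0.013 with the mouse as a block and 0.12 without), with 12.7, 13.9, 11.4 and 12.5 TPM in the rectum of mice 1 to 4 and 169.5, 133 and 216 TPM in that of mice 8 to 10, and Insl5 by 1.23 in mid-colon and 2.72 in rectum (difference -1.49 ± 0.15 SE, limma adjusted p 0.0036 with the mouse as a block and 0.24 without). Grem1 changed by 1.62 in mid-colon and 2.84 in rectum (difference -1.23 ± 0.22 SE, limma adjusted p 0.0496 with the mouse as a block and 0.12 without), Spink4 by 1.00 in mid-colon and 1.85 in rectum (difference -0.85 ± 0.11 SE, limma adjusted p 0.015 with the mouse as a block and 0.47 without), Zbp1 by 2.79 in mid-colon and 3.57 in rectum (difference -0.78 ± 0.14 SE, limma adjusted p 0.048 with the mouse as a block and 0.57 without) and Rtp4 by 0.88 in mid-colon and 2.06 in rectum (difference -1.18 ± 0.19 SE, limma adjusted p 0.032 with the mouse as a block and 0.63 without). Other leading genes gave no call in either fit: Ccl8 changed by 4.61 in mid-colon and 5.35 in rectum, Slpi by 4.08 and 4.82, S100g by -4.57 and -4.25, Gsta3 by -3.46 and -4.22, and Cldn2 by -3.36 and -4.29. Whether the 2 sections differed in their mix of cells was not tested. Hba-a1, of hemoglobin, was also among the 65 and changed by 0.69 in mid-colon and 2.18 in rectum (difference -1.49 ± 0.25 SE, limma adjusted p 0.042 with the mouse as a block and 1 without).

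**Figure D5:**
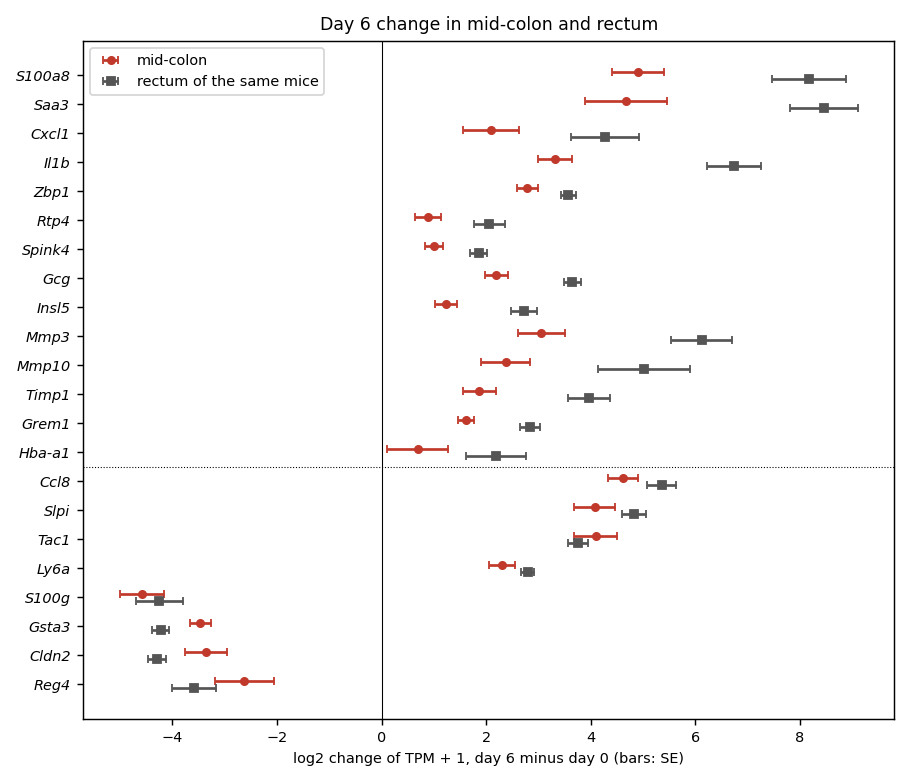
Log2 change of TPM + 1 from day 0 to day 6 in mid-colon (red circles) and rectum (grey squares) with the SE of each, for 14 named genes called different between sections in the blocked fit (above the dotted line) and 8 leading genes that were not (below). Above the line every rectal change is higher than the mid-colonic one, as for S100a8 with 8.17 against 4.89.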

How the data were processed

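RNA of 66 samples was sequenced from stranded mRNA libraries as single-end reads of 75 bases, per the labels' protocols. The authors' deposited signal is an abundance per transcript in TPM, and kallisto, CASAVA and the mm10 build are named, without versions, per the submitters' processing notes. Of 126860 table rows 37344 without values and 1318 repeats were dropped, and TPM of 88198 transcripts was summed over 30452 genes. TPM holds no read number, so sequencing depth is unknown and counting error cannot be given. TPM is a share, so a rise of abundant genes lowers the others. Which strand the quantification used is not given in the sources used here.

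limma 3.58.1 (R 4.3.3, empirical Bayes with a trend) was fitted to log2(TPM + 1) of genes with at least 1 TPM in 3 or more samples, with Benjamini-Hochberg adjustment over all genes tested and a threshold of 0.05. Within a section the labels give each sample its own mouse. The sections come from the same mice, and the correlation of same-mouse deviations in mid-colon and rectum ranged from -0.024 to 0.509 over the 7 mice, so the fit with the mouse as a replicate block stands beside the comparison of sections. Days share no mouse and could not be paired. The fit of day 6 against day 0 alone was run on simulated data with known changes and independent noise in each gene. The simulation held no shift of a whole sample and no mouse set apart, so it does not cover those features of these data. Library measures were compared by exact two-sided permutation over 35 splits. Alternatives were TMM factors, a pseudocount of 0.1, no filter or one at 5 TPM, totals without mitochondrial genes, all days in one fit, a robust prior, a 2-fold minimum and each mouse left out. TMM factors with mouse 4 or mouse 10 left out, and the block with TMM factors, were added after seeing the data.

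The samples, the 46 gene lists (809 genes, 799 in the table) and the tests were chosen with earlier results of these data known. The naming rule took, from each list, up to 4 called genes with the largest change and a mean of at least 5 TPM in the higher group, or the 2 most abundant genes where a list had no call. To these it added the 12 largest rises and 12 largest falls with a mean of at least 8 TPM in the higher group and no overlap, and 3 each way against day 3. Other list members given in the text were chosen after their values were seen. Some genes are not reported here. Promoter and motif searches used RefSeq windows on GRCm38.p6. Analyses used Python 3.11.15, pandas 2.3.3, numpy 2.4.6 and matplotlib 3.10.9.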

Additional observations from a re-analysis of the deposited data

Results flagged for a closer look

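In the 4 uninjured mice, 1 sample lay farther from the others than Dixon's 95% critical value allows for 18 of the 143 genes examined, where chance flags about 1 in 20 groups. Values are the gap to the nearest sample divided by the range of the group. Mouse 4 was the one apart on the first principal component (0.954) and in the share of TPM held by the 10 most abundant genes (0.863, highest). It was the highest sample for H2-Aa (0.914) and Dcn (0.907). The genes for which it was the lowest included Gstm3 (0.852), Cdo1 (0.866), Sdc1 (0.893), Bdh1 (0.887), Muc1 (0.911), Lrig1 (0.916), Mvd (0.861), Pfkl (0.933) and Ndrg1 (0.851). Mouse 2 was lowest for Ier3 (0.852) and Tagln (0.883). Mouse 3 was highest for Bmp4 (0.882), Cyp2c55 (0.9) and Zfas1 (0.83), and mouse 1 for Uchl1 (0.834).

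The day 6 change differed between mid-colon and rectum, by the interaction test in limma with the mouse as a block, for 14 of the genes examined. The differences, mid-colon minus rectum on the log2 scale, were -3.28 for S100a8, -3.78 for Saa3, -2.19 for Cxcl1, -3.42 for Il1b, -0.78 for Zbp1, -1.18 for Rtp4, -0.85 for Spink4, -1.45 for Gcg, -1.49 for Insl5, -3.07 for Mmp3, -2.64 for Mmp10, -2.09 for Timp1, -1.23 for Grem1 and -1.49 for Hba-a1. Without the block limma called 0 of them.

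A transcript with no gene name in the table, ENSMUST00000117472, was listed at 18752 TPM in day 6 mouse 10. It stood at 627, 383, 710.2 and 620 TPM in uninjured mice 1 to 4 and at 598 and 816 TPM in mice 8 and 9. Transcripts without a gene were not tested.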

How the results depend on the processing

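Of the comparison with day 0, the count of 1785 genes was 1022 with no filter on low values, 726 with a 2-fold minimum, 3071 with TMM factors and mouse 4 left out and 903 with TMM factors and mouse 10 left out. It ranged from 570 to 5248 when each mouse was left out, lowest without mouse 10 and highest without mouse 4, and stayed within 1.5 times under the other settings. The comparison with day 3 gave 3777 genes, 1892 with TMM factors, 1379 with no filter, and 732 (without mouse 6) to 5690 (without mouse 5) with 1 mouse left out. The comparison of sections gave 0 genes, 2 with no filter, 76 in the replicate block fit (mouse), 48 when TMM factors were added to it, and 0 to 11 with 1 mouse left out. The cause of these shifts was not tested. Of 143 genes examined, TMM factors took 6 calls (Fabp2, Cdx2, Atoh1, Klf4, Ndrg1 and Cyp2c55), no filter 49, leaving out mouse 10 took 47 of 136, and leaving out mouse 4 took 0. Leaving out mouse 1, 2 or 3 took 31, 33 and 30 calls, and leaving out mouse 8 or 9 took 16 and 32 of 136. All mid-colon days in one fit took 22. Genes without a call changed sign as follows: mt-Co1 with TMM factors (0.167, with mouse 10 left out 0.199 and mouse 4 left out 0.303), Actg2 with TMM factors (0.227, 0.398 and 0.185) and with 1 mouse left out (-0.337 to 0.165), and Hba-a1 with 1 mouse left out (-0.036 without mouse 10 to 1.393 without mouse 8). The number of mice limits the precision, and read depth is unknown.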

Other observations

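Further groups of genes were listed after their values were seen, so their counts are a description. Of 18 tested genes of the circadian clock and its output 11 were lower and 1, Nfil3, higher at day 6 (1 of 1 low at day 0 called, 0 and 8 of 17 without mouse 10). The median log2 change was -1.16 against -0.24 over all genes. Dbp, a transcription factor that the clock drives with a wide daily swing, was measured at 94.8, 89.3, 100.5 and 81.3 TPM in uninjured mice 1 to 4 and 13.1, 24.6 and 14.8 TPM in day 6 mice 8 to 10 (log2 change -2.37 ± 0.20 SE, limma adjusted p 0.00042), and the groups were far apart. Tef, Ciart and Per3 changed by -1.56, -1.82 and -1.36. The labels do not give the hour of dissection, so a different hour and DSS cannot be told apart here.

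Of 21 tested genes of glutathione conjugation and the NRF2 response 14 were lower and 1 higher. Gsta1 changed from 76.2, 75.1, 73.1 and 83.4 TPM to 14.6, 11 and 16.6 TPM (log2 change -2.39 ± 0.16 SE, limma adjusted p 0.00011) and Nqo1, a quinone reductase, from 15.3, 19.9, 17 and 17.7 TPM to 4.71, 3.89 and 2.41 TPM (log2 change -2.01 ± 0.20 SE, limma adjusted p 0.00061). The 1 higher was Hmox1, heme oxygenase, from 3.48, 3.16, 4.5 and 4.47 TPM to 7.64, 12.3 and 15.1 TPM (log2 change 1.34 ± 0.23 SE, limma adjusted p 0.0075). Glutathione transferases share sequence within their family.

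Of 9 tested complement genes 8 were higher and 0 lower (4 and 0 without mouse 10). C4b changed from 7.29, 6.58, 8.59 and 5.57 TPM to 26, 18.5 and 35.4 TPM (log2 change 1.75 ± 0.23 SE, limma adjusted p 0.002), and Cd55, a membrane inhibitor of complement, from 65.2, 77.9, 74.2 and 74.5 TPM to 206, 186 and 216 TPM (log2 change 1.46 ± 0.12 SE, limma adjusted p 0.00040).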
